A study of Mus musculus with 7 samples.

Results

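The expression of 10 imprinted genes was examined in nuclei of mouse small cell lung cancer (SCLC) and of the lung around it. Igf2, H19, Dlk1, Meg3, Rian, Mirg, Peg3, Grb10, Cdkn1c and Kcnq1ot1 were taken by symbol from the 56941 genes counted, and all 10 were present in the count table of each animal. Single nuclei were isolated from fresh-frozen lung tumors of 4 male mice. RP1 and RP2 carried Rb1 fl/fl and Trp53 fl/fl, and RPC1 and RPC2 carried Rb1 fl/fl, Trp53 fl/fl and, in the labels, Casp8-/-, which the study describes as a conditional Casp8 deletion. Tumors were started in all 4 mice with an adenovirus carrying Cre under the CMV promoter, which is not restricted to a cell type, and were taken at endpoint. The age at sampling was not given in the labels. Each animal is 1 replicate, so every genotype has n = 2, and the nuclei of an animal are not replicates.

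An imprinted gene is transcribed mainly from the copy of a single parent, marked by DNA methylation laid down in the germ line. Many imprinted genes act on growth: those expressed from the father's copy tend to promote it, and those expressed from the mother's copy tend to restrain it. Most are high in the fetus and low in adult tissue, and loss of imprinting at Igf2 and H19 is a known event in tumors. The counts used here do not separate the parental copies, so they measure how much RNA each gene gave and not whether its imprint was kept.

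After filtering, 38254 nuclei remained, 8363 from RP1, 8874 from RP2, 10853 from RPC1 and 10164 from RPC2, with 32256394 to 70517884 transcripts per animal. Each cluster was scored for each marker list by the median log2 difference from all other nuclei. Clusters are called tumor-like where the neuroendocrine list (among them Insm1, Chga and Syp) scored above -0.5 and no other list above 0.5. Enrichment of neuroendocrine markers was not required, and the neuroendocrine scores of these clusters ran from -0.182 to 0.229. The tumor-like clusters held 32050 of the nuclei. The others fell in lung classes named from marker genes, such as 509 endothelial-like, 316 smooth muscle or pericyte-like (mural), 134 fibroblast-like and 826 macrophage or monocyte-like nuclei, and 2111 shallow nuclei stayed unnamed. Neuroendocrine markers were not absent from the lung classes: their summed level stood at 77.2% of the tumor-like level in endothelial-like nuclei, 79.1% in mural nuclei and 62.3% in macrophage or monocyte-like nuclei. Subclusters of each class with little tumor RNA, at 11.7 to 21.8% of that level, are therefore given beside the whole classes. Levels are counts summed over the nuclei of an animal, divided by all transcripts of those nuclei and given as counts-per-million (CPM), and 4 values in a row stand for RP1, RP2, RPC1 and RPC2. Summed over the gene, Casp8 was at 58.9 and 61.0 CPM after scaling between animals by TMM in tumor-like nuclei of RP, and at 88.7 and 66.3 in those of RPC. Gene sums do not resolve the deleted exons, so this value, like those of Rb1 and Trp53, does not check the genotype labels.

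The promoters of Grb10, Meg3 and Peg3 are shown because the comparisons of nuclei and of animals given here turn on these genes. Each line is the 250 bases before an annotated RefSeq start, found at a single place in GRCm39 and written along the gene's strand with CG, the dinucleotide that carries the methylation of an imprint, in capitals. Grb10 has a start in a window crowded with CG and a second start downstream, the latter known as its promoter in neurons.
Grb10, upstream start, chr11:11987421-11987670, minus strand: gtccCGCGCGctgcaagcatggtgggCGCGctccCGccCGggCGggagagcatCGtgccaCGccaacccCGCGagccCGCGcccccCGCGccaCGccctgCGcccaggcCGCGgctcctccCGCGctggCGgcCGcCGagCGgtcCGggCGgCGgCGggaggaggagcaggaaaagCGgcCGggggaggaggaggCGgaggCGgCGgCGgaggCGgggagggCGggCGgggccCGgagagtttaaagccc
Grb10, downstream start, chr11:11977972-11978221, minus strand: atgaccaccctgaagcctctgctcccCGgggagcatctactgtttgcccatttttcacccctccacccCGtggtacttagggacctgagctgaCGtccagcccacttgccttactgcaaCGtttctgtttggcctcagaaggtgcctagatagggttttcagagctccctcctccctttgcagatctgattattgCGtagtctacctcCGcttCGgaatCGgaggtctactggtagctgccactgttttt
Meg3, chr12:109506629-109506878, plus strand: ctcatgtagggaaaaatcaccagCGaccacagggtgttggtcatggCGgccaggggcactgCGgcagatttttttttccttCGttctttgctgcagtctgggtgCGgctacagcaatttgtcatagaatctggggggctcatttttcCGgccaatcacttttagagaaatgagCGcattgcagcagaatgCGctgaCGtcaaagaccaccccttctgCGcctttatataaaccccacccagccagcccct
Peg3, chr7:6733419-6733668, minus strand: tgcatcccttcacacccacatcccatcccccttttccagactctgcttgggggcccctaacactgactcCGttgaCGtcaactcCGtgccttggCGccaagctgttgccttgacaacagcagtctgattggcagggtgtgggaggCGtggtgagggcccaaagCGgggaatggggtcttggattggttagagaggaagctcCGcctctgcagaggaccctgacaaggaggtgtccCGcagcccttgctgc
The upstream Grb10 window held 40 CG, and only 1.31% of the 32851 promoter windows in the RefSeq table held as many, with a median of 6. The downstream Grb10 window held 8, the Meg3 window 10 and the Peg3 window 8. The letters TGCCGC, which the imprint-keeping protein ZFP57 recognises when methylated, were searched on both strands. They occurred once in the Meg3 window above and in no other of the 13 windows that matched 8 of the 10 genes, against 8.68% of all windows. The starts of Peg3 and of its neighbor Usp29, read in opposite directions, lie 164 bases apart. The counts are per gene, so they do not tell which start was used.

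In tumor-like nuclei the 10 genes were at very different levels. Kcnq1ot1, a long noncoding RNA that silences its neighbors on the father's copy, was at 499.1, 547.3, 511.8 and 396.9 CPM. Peg3, a zinc finger protein expressed from the father's copy, was at 316.5, 321.6, 593.3 and 449.0 CPM. Igf2, a fetal growth factor that signals through Igf1r and Insr, was at 70.3, 69.5, 108.2 and 83.3 CPM. These 3 genes were well above the rest in every animal. Grb10, an adaptor that restrains insulin and IGF receptor signaling, was at 5.91, 10.3, 10.7 and 6.72 CPM, and Cdkn1c, the cell cycle inhibitor p57, at 5.51, 3.46, 4.45 and 6.88. For both, the 2 genotypes overlapped.

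The 4 members of the Dlk1-Dio3 domain on chromosome 12 were near the bottom. Meg3, a noncoding RNA of the mother's copy, was at 1.67, 1.31, 5.00 and 0.964 CPM, with RPC1 above the other 3 animals. Mirg, a host of microRNAs, was at 1.45, 1.49, 1.40 and 1.16 CPM. Rian, a host of small nucleolar RNAs, was at 0.797, 0.910, 1.53 and 0.657 CPM. Dlk1, a transmembrane relative of the Notch ligands and a protein-coding gene of the domain on the father's copy, gave 3, 0, 3 and 0 transcripts. H19, the noncoding partner of Igf2, gave 6, 6, 7 and 8 transcripts, which is 0.133 to 0.218 CPM. Over all 38254 nuclei there were 38 transcripts of H19 and 8 of Dlk1, so at this depth neither could be compared between classes or genotypes. All microRNA genes inside Igf2, H19, Meg3, Rian and Mirg were at 0 in these libraries, which do not measure mature microRNAs.

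**Figure D1:**
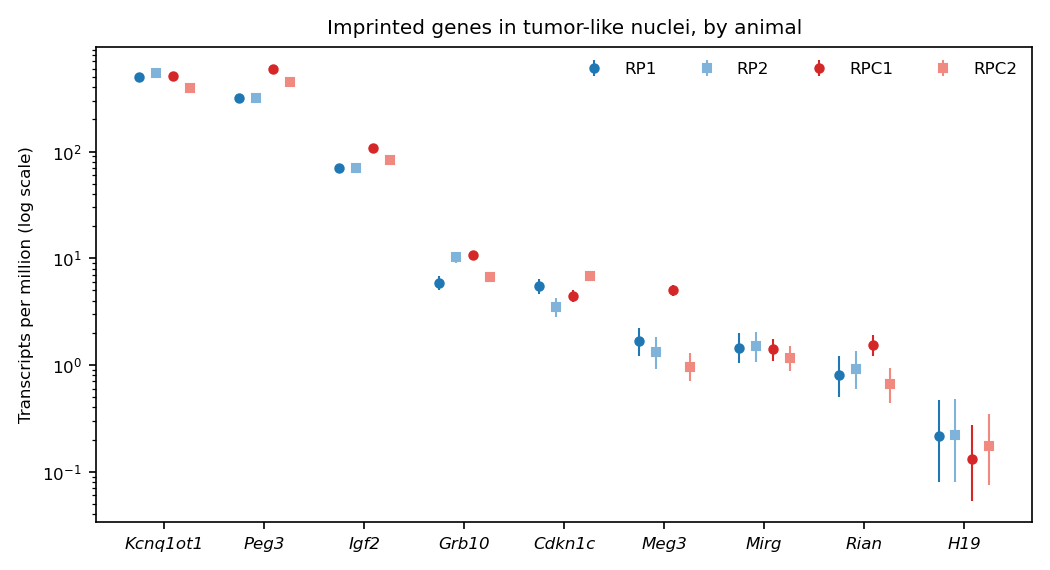
Level of 9 of the 10 imprinted genes in tumor-like nuclei, in CPM on a log axis, 1 point per animal with the exact 95% Poisson interval, which covers counting error only. Peg3 and Igf2 sit higher in RPC1 and RPC2 than in RP1 and RP2, and Meg3 is higher in RPC1 than in the other 3 animals; Dlk1, at 0 in RP2 and RPC2, is not drawn.

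Genes of different length give different numbers of transcripts, so the order was also taken per kilobase of exon. In RP1 Peg3 led with 23.2 CPM per exonic kilobase, followed by Igf2 with 11.4 and Kcnq1ot1 with 5.32. Cdkn1c followed with 2.56 and Grb10 with 0.576, while Meg3 was at 0.0864, H19 at 0.0764 and Rian at 0.0249. Whether intronic reads were counted is not given in the sources used here, and the order depends on it. Per kilobase of the whole gene Peg3 led with 11.9 CPM in RP1, Igf2 was at 4.34 and Kcnq1ot1 at 4.20 in RP1 but at 4.29 and 4.60 in RP2, and Grb10, at 0.0546 in RP1, was below Mirg, at 0.0736. Igf2 (GRCm39 chr7:142204503-142220694, minus strand) and H19 (chr7:142129262-142133957, minus strand) share enhancers and lie near each other, and yet H19 was far below Igf2 in every animal. Kcnq1ot1 (chr7:142731402-142850327, minus strand) lies wholly within Kcnq1 on the other strand. Igf2 overlaps the antisense Igf2os, which held 3557 transcripts over all nuclei. Whether strand was used in counting is not stated in the sources used here, so reads of such partners may not be fully separated.

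The comparison of RPC with RP asked how loss of Casp8 changed the tumor cells. Of the 10 genes, 8 had enough counts for the test and 0 were called at an adjusted p below 0.05 (edgeR quasi-likelihood test on animal sums). Over all 20093 genes tested, 0 (0%) were called, although 3058 (15.2%) had an unadjusted p below 0.05. DESeq2 called 638 of 17433 genes, or 3.66%, and 0 of the 8. Of the 8, 1 had an unadjusted p below 0.05. The animals did not overlap between genotypes for 4 of the 8 genes, beside 50.4% of all genes tested.

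Peg3 had the lowest unadjusted p of the 10. After scaling between animals by TMM its level was 327.4 and 324.7 CPM in RP1 and RP2, and 574.8 and 445.5 in RPC1 and RPC2, so that both RPC animals were above both RP animals. The log2 fold change was 0.65 ± 0.18 (SE, n = 2 per genotype; 95% interval 0.192 to 1.0995), with an unadjusted p of 0.0143 and an adjusted p of 0.281 in edgeR. Peg3 was higher in RPC under all 14 alternative settings, at log2 0.46 to 0.84, with an adjusted p of 0.136 to 0.617. Usp29, whose start lies beside that of Peg3 and which is also expressed from the father's copy, was at 249.7, 190.2, 208.4 and 197.0 scaled CPM. For Usp29 the 2 genotypes overlapped, and the log2 fold change was -0.12 ± 0.18.

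Igf2 was at 72.7 and 70.2 scaled CPM in RP1 and RP2, and at 104.9 and 82.6 in RPC1 and RPC2, again without overlap. Its log2 fold change was 0.39 ± 0.17 (95% interval -0.04 to 0.82), with an unadjusted p of 0.0658 and an adjusted p of 0.348 in edgeR. Kcnq1ot1 was at 516.2 and 552.6 scaled CPM in RP and 495.9 and 393.8 in RPC. Its log2 fold change was -0.26 ± 0.17 with an adjusted p of 0.491 in edgeR, and without scaling the 2 genotypes overlapped. Mirg, with log2 -0.26 ± 0.33, and Cdkn1c, with log2 0.28 ± 0.39, were within their error of no change. For Grb10, Meg3 and Rian the log2 fold change was 0.05 ± 0.38, 0.93 ± 0.78 and 0.30 ± 0.51, and its sign depended on a cluster of nuclei in RPC1 described further on. The median log2 fold change was 0.29 over the 8 genes and -0.01 over all genes tested.

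**Figure D2:**
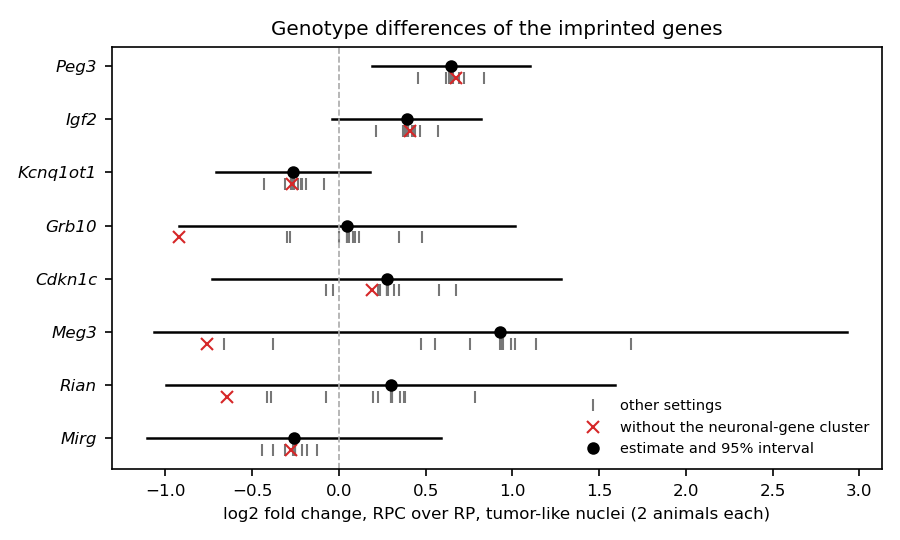
log2 fold change of RPC over RP in tumor-like nuclei for the 8 imprinted genes tested, with the edgeR estimate and its 95% interval (black), other settings (gray ticks) and the value without the neuronal-gene cluster (red cross). Of the 8 intervals only that of Peg3, 0.192 to 1.0995, lies wholly on 1 side of 0; without the cluster Grb10, Meg3 and Rian move to -0.92, -0.76 and -0.64.

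The share of nuclei holding a transcript was compared as well. Since RPC nuclei held more transcripts, with a median of 3345 and 2868 in tumor-like nuclei against 2364 and 2284 in RP, each nucleus was thinned to 1000 transcripts, and the 2014 tumor-like nuclei below that depth were left out. Peg3 was then found in 26.5% and 25.9% of RP1 and RP2 nuclei and in 42.9% and 35.1% of RPC1 and RPC2 nuclei. Igf2 was found in 5.96% and 6.26%, against 9.80% and 7.73%. Kcnq1ot1 was found in 37.1% and 39.1%, against 35.4% and 30.4%. Without thinning the Kcnq1ot1 difference was 0.258 percentage points in favor of RPC, in place of 5.20 in favor of RP. The Peg3 level of an animal was 317 ± 14.1 (SD), 322 ± 15.5, 594 ± 12.9 and 449 ± 10.7 CPM over the 7 sublibraries, which split the pooled nuclei of all 4 animals. The first-round wells, of which an animal has 2 or 3, spread more. By well Peg3 ran from 308 to 322 CPM in RP1, from 303 to 345 in RP2, from 525 to 719 in RPC1 and from 435 to 463 in RPC2. The 3 wells of RPC1 thus differed by more than the means of RPC1 and RPC2 did. Igf2 was at 46.5 and 86.3 CPM in the 2 wells of RP1 and at 79.7 and 86.8 in those of RPC2, so that by well the genotypes overlapped.

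Tumor-like nuclei formed 11 clusters, most of them held largely by 1 animal. Peg3 ranged 2.53-fold between clusters, from 262 to 665 CPM, and, among clusters with at least 200 nuclei of an animal, from 261 to 445 CPM within RP1 and from 482 to 666 within RPC1. The lowest RPC1 cluster was therefore above the highest RP1 cluster, while RPC2, at 422 to 562, overlapped RP1. Igf2 ranged 1.96-fold and Kcnq1ot1 1.82-fold between clusters. Grb10 ranged 41.7-fold, from 1.79 to 74.6 CPM, and that range came from a single cluster.

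This cluster held 639 nuclei, 582 of them from RPC1, and was led by the neuronal genes Grik2, Lrrtm4, Erbb4, Adarb2 and Nrxn3. The neuroendocrine score of the cluster was -0.182, at the low end of the tumor-like clusters. Grb10 was at 74.6 CPM in it (exact 95% Poisson interval 68.0 to 81.7), Meg3 at 35.6 (31.1 to 40.6) and Rian at 9.39 (7.15 to 12.1). In the tumor-like nuclei of RPC1, this cluster held 224 of 264 Meg3 transcripts (84.8%), 457 of 563 Grb10 transcripts (81.2%) and 59 of 81 Rian transcripts (72.8%). It held only 10.6% of those of Igf2 and 9.52% of those of Peg3. Without the cluster, the tumor-like level of Meg3 in RPC1 was 0.858 CPM and that of Grb10 2.27, each the lowest of the 4 animals. As nearly all of its nuclei come from RPC1, genotype and animal cannot be told apart for it.

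Within the cluster the genes were spread over different numbers of nuclei. After thinning to 1000 transcripts, Grb10 was found in 10.7% of the nuclei and Meg3 in 3.05%. Of all 264 Meg3 transcripts of RPC1, 144 (54.5%) came from 5 nuclei, with 55 in the highest nucleus. The 52 nuclei of the cluster with Meg3 had 45.1 CPM of Rian and 5.88 of Mirg, against 2.47 and 0.950 in the 587 without, and were deeper, with a median of 10498.5 transcripts against 3992. Their Grb10 level was 85.3 CPM against 72.6, and their summed neuroendocrine marker level was 4981 CPM against 4799. Meg3 and Rian were thus concentrated in few nuclei, whereas Grb10 was spread over the cluster.

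**Figure D3:**
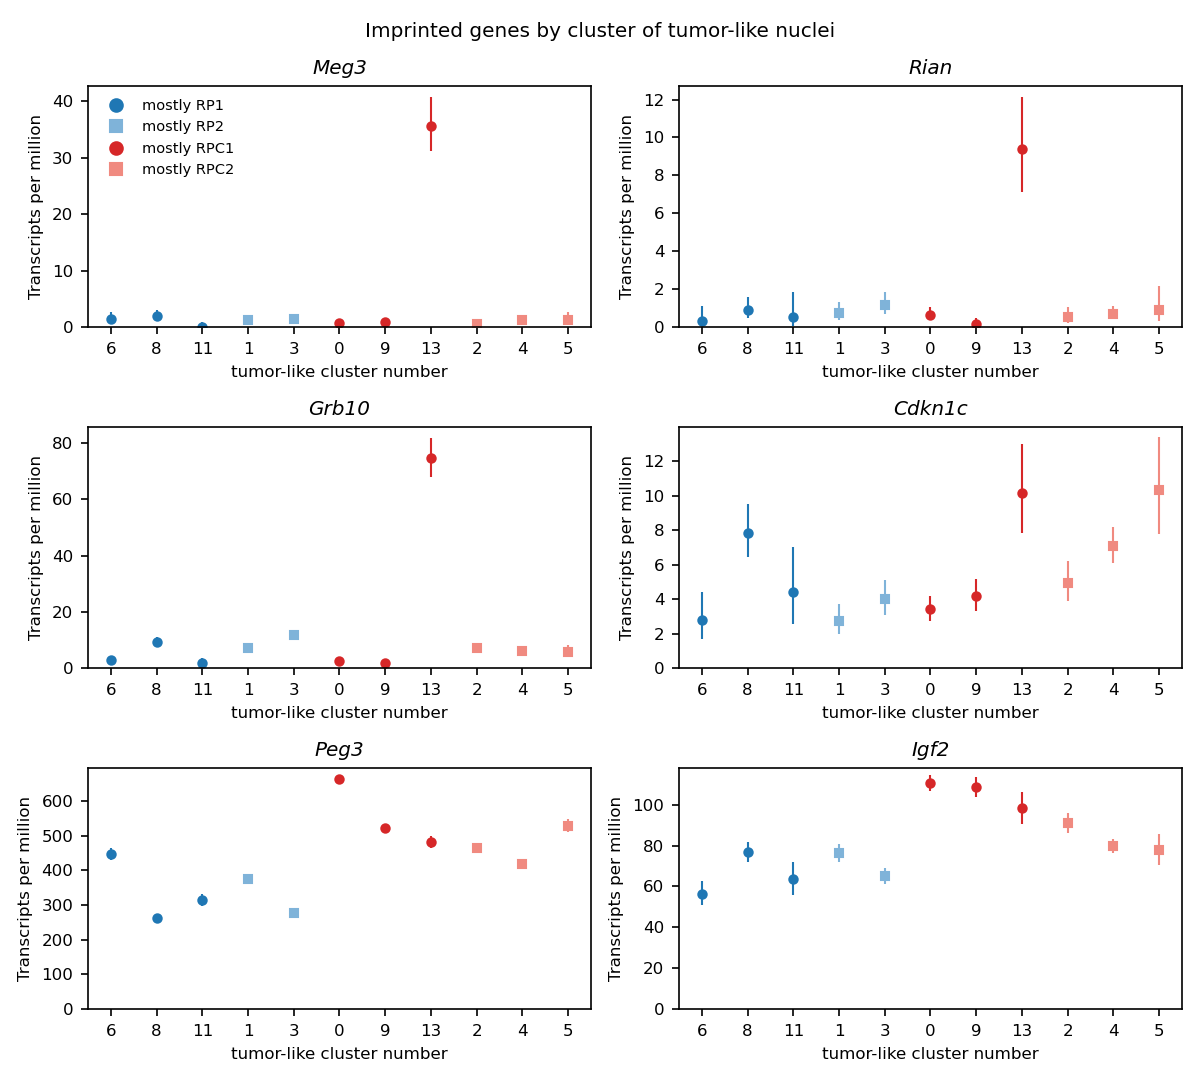
Level of 6 imprinted genes in the 11 clusters of tumor-like nuclei, in CPM with exact 95% Poisson intervals, which cover counting error only; color and shape give the animal with most nuclei in the cluster. Cluster 13, led by neuronal genes, stands apart for Meg3, Rian and Grb10 but not for Peg3 or Igf2.

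The next comparison asked where in the lung these genes were expressed. Counts were summed by animal and class, and 7 classes with enough nuclei were each set against tumor-like nuclei in 1 edgeR fit over 11821 genes, with the animal as a term. Sums of too few nuclei were left out. Club-like and alveolar type 2-like nuclei therefore had no RP1 sum (16 and 44 nuclei), and RP2 was their only RP animal. B cell-like nuclei had no RP2 sum (47 nuclei), and RP1 was their only RP animal. Of 42 tests of members, 11 were called: 1 of 6 in endothelial-like, 2 of 6 in mural, 3 of 6 in club-like, 2 of 6 in macrophage or monocyte-like and 3 of 6 in the unnamed nuclei, and 0 of 6 in alveolar type 2-like and B cell-like nuclei, where 1 and 0 had an unadjusted p below 0.05 and DESeq2 called 0. Over all genes 14.3%, 11.8%, 21.9%, 35.7%, 50.8%, 8.36% and 6.23% were called by edgeR in these 7 classes in turn. The tests differed in 2 classes: DESeq2 called 2 of 6 members in club-like and 3 of 6 in mural nuclei. In the other classes it called as many as edgeR. Its share over all genes by class is not given here.

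Grb10 was higher in stromal nuclei than in the tumor. In endothelial-like nuclei it was at 94.9, 74.8, 117.1 and 66.7 CPM, and in mural nuclei at 104.9, 86.9, 79.97 and 51.6. Every one of these values was above the highest tumor-like value of 10.7. The log2 difference was 3.35 ± 0.24 in endothelial-like nuclei (10.2-fold, adjusted p = 1.60e-11 in edgeR) and 3.26 ± 0.25 in mural nuclei (9.60-fold, adjusted p = 3.96e-11). As background, 10.1% and 9.36% of all genes were called higher in these 2 classes. In the subclusters with little tumor RNA the levels were higher, at 222, 248, 205 and 380 CPM for endothelial-like and at 238, 315, 159 and 293 for mural nuclei. The log2 difference from tumor-like nuclei then was 4.96 ± 0.34 and 4.99 ± 0.36.

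Grb10 was higher still in fibroblast-like nuclei, which were too few to test and whose neuroendocrine marker level was 43.6% of the tumor-like level. With 18, 40, 23 and 53 nuclei they gave 331.5, 173.7, 567.3 and 474.3 CPM. In the subclusters with little tumor RNA, B cell-like and T or NK cell-like nuclei held 0 Grb10 transcripts in all 4 animals. Over the animals the exact 95% Poisson interval reaches 17.4 and 27.1 CPM, above the tumor-like level. Macrophage or monocyte-like nuclei of such subclusters were at 0, 14.2, 0 and 7.74 CPM. After thinning to 1000 transcripts, 12.2% of endothelial-like nuclei held Grb10 (exact 95% binomial interval 9.33 to 15.7), against 0.657% of macrophage or monocyte-like nuclei (0.214 to 1.53) and 0.776% of tumor-like nuclei. Median depths before thinning were 3136, 3775 and 2935.5 transcripts. All of these nuclei were thinned to the same depth, so the shares are compared at equal depth. In club-like nuclei Grb10 was 1.03 ± 0.33 higher on the log2 scale (adjusted p = 0.0238 in edgeR). This call was lost on leaving out RP1, RP2 or RPC2, with an adjusted p of 0.0690 to 0.134, and 717 of the 899 club-like nuclei came from RPC1. RP1 gave no club-like sum, so leaving it out removed only its sums of tumor-like nuclei and of other classes.

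Meg3 and Rian were found in mesenchymal nuclei, but unevenly. Meg3 was not confined to them. Over all animals, the 36 mesothelial-like nuclei held it at 55.0 CPM (8 transcripts). A club-like subcluster of 276 nuclei with little tumor RNA held it at 14.8 CPM (14 transcripts). T or NK cell-like nuclei held 0 transcripts of it. Meg3 was at 134.1, 29.5, 11.3 and 28.1 CPM in mural nuclei, each above the tumor-like value of the same animal. The log2 difference was 4.05 ± 0.74 (16.6-fold, adjusted p = 1.75e-04 in edgeR). Leaving out 1 animal moved it between 3.13 and 5.36, with an adjusted p of at most 0.0237. In the subcluster with little tumor RNA the counts were 37, 5, 0 and 20 transcripts in 48, 49, 30 and 27 nuclei, so RPC1 had none. Rian was at 30.6, 15.5, 2.25 and 7.24 CPM in the whole class, but Rian did not pass the filter on low counts in that fit.

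Both RNAs come from neighboring genes on the mother's copy, and they met in the same nuclei. Of 46 mural nuclei with Meg3, 18 also held Rian (39.1%), against 1.48% of those without Meg3, at median depths of 5485 and 4495.5 transcripts. In tumor-like nuclei the shares were 8.96% and 0.317%, at median depths of 6918 and 2767. Of the 18 tumor-like nuclei with both RNAs, 11 lay in the cluster led by neuronal genes, which is mostly RPC1. Fibroblast-like nuclei split by subcluster. A subcluster of 21 nuclei led by Cemip, Slit3 and Csmd1 held Meg3 at 476 CPM (exact 95% Poisson interval 333 to 659), Rian at 159 (82.0 to 277) and Grb10 at 489 (344 to 674). Another, of 44 nuclei, was led by C7, Itga8 and Pdgfra. It held 0 transcripts of Meg3 and Rian (0 to 18.3 CPM) and Grb10 at 681 CPM (572 to 805). High Grb10 was therefore found with and without Meg3 among fibroblast-like nuclei.

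Igf2 and Peg3 were lower in some lung classes than in the tumor. In macrophage or monocyte-like nuclei, where 19.1% of all genes were called lower, Igf2 was at 42.7, 54.5, 80.1 and 63.1 CPM and Peg3 at 216.2, 193.3, 355.4 and 308.9, in each animal below its tumor-like level. The log2 difference was -0.52 ± 0.15 for Igf2 (adjusted p = 0.00832 in edgeR) and -0.70 ± 0.22 for Peg3 (adjusted p = 0.0131). In club-like nuclei Igf2 was lower by log2 -0.51 ± 0.18 (adjusted p = 0.0452 in edgeR) and Peg3 by log2 -0.87 ± 0.25 (adjusted p = 0.0128). Each of the 4 calls was lost on leaving out some single animals. For macrophage or monocyte-like nuclei these were RP1 or RPC2 for Igf2 (adjusted p up to 0.134) and RP1, RP2 or RPC2 for Peg3 (up to 0.0704). For club-like nuclei they were RP1, RP2 or RPC2 for Igf2 (up to 0.360) and RP2 or RPC2 for Peg3 (up to 0.206). As RP1 had no club-like sum, leaving it out removed only its sums of tumor-like nuclei and of other classes. The difference was larger where there was little tumor RNA: Peg3 was at 78.3, 42.5, 89.2 and 81.3 CPM in macrophage or monocyte-like nuclei, a log2 difference of -2.64 ± 0.25, and Igf2 at 12.4, 18.9, 40.1 and 38.7, a log2 difference of -1.69 ± 0.29. Peg3 was lower than in tumor-like nuclei in all 7 classes so tested, by log2 -0.94 in endothelial-like to -3.06 in club-like nuclei. Fibroblast-like nuclei were too few for this test, and not all of them were low. Of their subclusters with little tumor RNA, that of 44 nuclei held Peg3 at 477 CPM (exact 95% Poisson interval 387 to 583). The other, of 21 nuclei, held it at 106 CPM (45.7 to 208).

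Kcnq1ot1 was not called in any of the 6 named classes taken whole. In endothelial-like nuclei it was at 352.3, 468.0, 462.1 and 357.4 CPM, below the tumor-like level of each animal, but the log2 difference of -0.28 ± 0.12 was not called (adjusted p = 0.104 in edgeR). In the endothelial-like subclusters with little tumor RNA it was at 88.9, 209, 74.6 and 97.0 CPM, below the tumor-like level in all 4 animals and lower by log2 -2.02 ± 0.27 (adjusted p = 4.48e-08 in edgeR). In those of macrophage or monocyte-like nuclei, at 408, 371, 524 and 387 CPM, the log2 difference was -0.30 ± 0.21 and was not called.

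**Figure D4:**
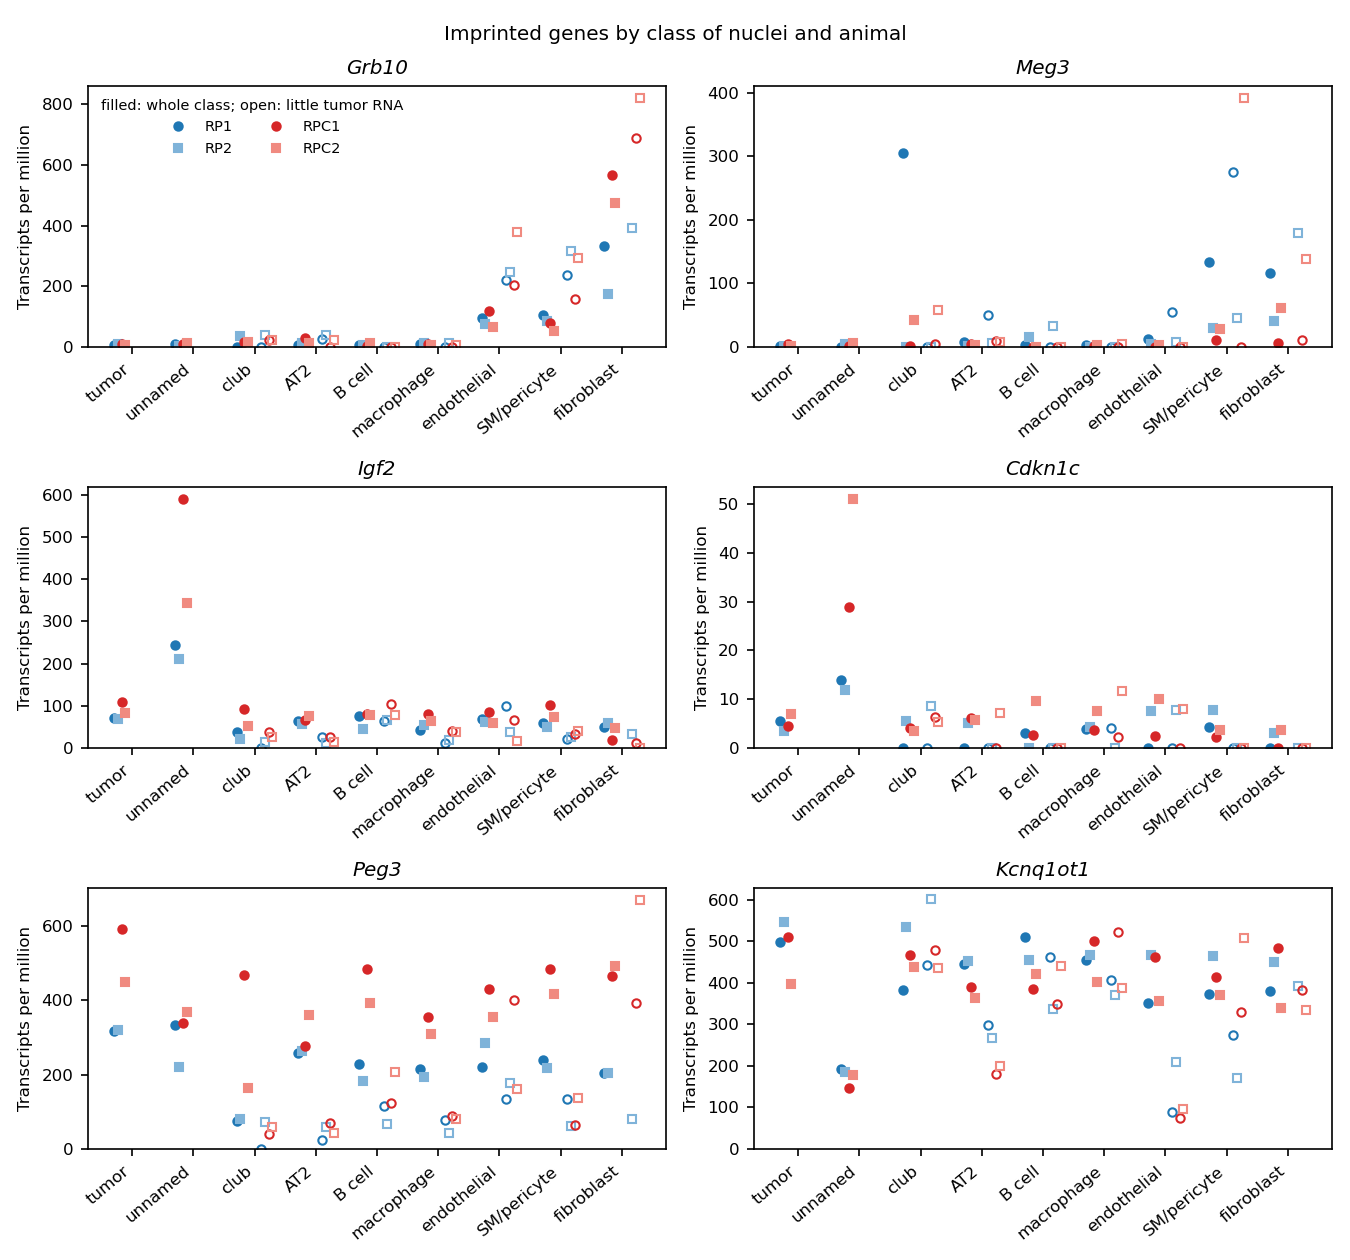
Level of 6 imprinted genes by class of nuclei, in CPM, with 1 point per animal; filled points are whole classes, open points the subclusters with little tumor RNA, and points from under 15 nuclei are not drawn. Grb10 is high in endothelial-like, SM/pericyte (mural) and fibroblast-like nuclei, Igf2 and Cdkn1c are high in the unnamed nuclei, and Peg3 is lower in most open points than in the tumor.

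The 2111 unnamed nuclei differed from the tumor-like nuclei for 3 members. Igf2 was at 244.8, 211.2, 589.0 and 344.1 CPM, higher than in the tumor-like nuclei of every animal, with a log2 difference of 2.19 ± 0.14 (4.57-fold, adjusted p = 2.89e-12 in edgeR). Cdkn1c was at 14.0, 11.9, 28.9 and 51.0 CPM, with a log2 difference of 2.48 ± 0.33 (5.56-fold, adjusted p = 6.15e-07). Kcnq1ot1, which stays in the nucleus, was lower, at 193, 186, 148 and 178 CPM, with a log2 difference of -1.25 ± 0.12 (adjusted p = 4.97e-09). As background, 24.8% of all genes were called higher in these nuclei and 26% lower. They were shallow, with a median of 876 to 1303 transcripts. Mitochondrial transcripts made up 1.63 to 3.52% of their total, against 0.388 to 0.612% in tumor-like nuclei, and the ribosomal RNA gene Rn18s-rs5 15.2 to 31.7% against 2.79 to 9.34%. Malat1, another RNA that stays in the nucleus, was also lower in them in each animal, and their neuroendocrine marker level was 76.5% of the tumor-like level. The part of these measures in the result was not tested.

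The genotype difference itself was compared between tumor-like nuclei and 4 other classes with an interaction term. Of 24 tests of members, 0 were called in edgeR and 2 had an unadjusted p below 0.05. Hardly any gene was called in this fit. Of all 11392 genes tested, 4 were called in endothelial-like, 1 in macrophage or monocyte-like, 2 in mural and 2 in unnamed nuclei. Among the members the smallest unadjusted p was 0.00399, for Peg3 in the unnamed nuclei. Its log2 difference was -0.72 ± 0.22, with an adjusted p of 0.462 in edgeR.

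The neighbors of these genes and the pathways around them were read from the same genotype comparison. They are 87 genes in 8 lists, of which 70 were tested and 0 called in either direction in edgeR, although 14 (20%) had an unadjusted p below 0.05, beside 15.2% of all genes tested, with a median log2 fold change of 0.03. Of the Dlk1-Dio3 neighbors 3 of 5 genes were tested, of the Igf2-H19 neighbors 5 of 6, of the Kcnq1 domain 8 of 11, of the Peg3 domain 2 of 3 of the Grb10 neighbors 3 of 3, of other imprinted genes 27 of 33, of the IGF axis 14 of 16 and of the genes that keep imprints 8 of 10. DESeq2 called 4 genes, beside 3.66% of all genes, all of them lower in RPC, and 2 of them were imprinted. Mest, an imprinted gene of the hydrolase fold family, was at 22.6 and 35.8 scaled CPM in RP and at 7.61 and 8.41 in RPC, with a log2 fold change of -1.87 ± 0.28 (adjusted p = 0.264 in edgeR and 3.24e-05 in DESeq2). Peg10, an imprinted gene derived from a retrotransposon, was at 16.9 and 14.96 in RP and at 8.73 and 6.56 in RPC, with a log2 fold change of -1.06 ± 0.25 (adjusted p = 0.270 in edgeR and 0.0442 in DESeq2).

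The other calls of DESeq2 lay in the IGF axis and among the genes that keep imprints. Igfbp2, which binds IGF2 outside the cell, was at 10.98 and 5.77 scaled CPM in RP and at 0.422 and 1.11 in RPC, with a log2 fold change of -3.46 ± 0.62 (adjusted p = 0.264 in edgeR and 9.79e-07 in DESeq2). Zfp57, which keeps methylation at imprinted regions, was at 3.599 and 1.62 in RP and at 0.624 and 0.521 in RPC, with a log2 fold change of -2.18 ± 0.51 (adjusted p = 0.270 in edgeR and 0.0189 in DESeq2). In all 4 genes both RPC animals were below both RP animals. This adds no support, as the genes were picked by a test on the same animals. Of all genes tested, 50.4% had no overlap between the genotypes, in either direction. Zfp445, another zinc finger protein that keeps imprints, was at 97.6 and 92.5 scaled CPM in RP and at 113 and 109 in RPC, a log2 fold change of 0.22 ± 0.13.

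The remaining genes that the list rule named did not pass either test. In the IGF axis Igf2bp2, which binds Igf2 mRNA, had a log2 fold change of -0.60 ± 0.18 and Irs2, a substrate of the insulin and IGF receptors, one of 0.57 ± 0.19. Nnat, an imprinted proteolipid, had 0.56 ± 0.14, Arid4a 0.30 ± 0.14, and Kcnq1, the potassium channel gene that contains Kcnq1ot1, 0.46 ± 0.19. Igf2os, antisense to Igf2, had 0.49 ± 0.25 beside 0.39 for Igf2. In the Kcnq1 domain Tssc4 had a log2 fold change of -1.04 ± 0.36 and Trpm5, at under 1 CPM in each animal, one of -1.65 ± 0.44. In the other neighbor lists the estimates ran from -0.76 ± 0.47 for Lsp1 to 0.75 ± 0.73 for Zim1. Between them lay Ikzf1 (-0.53 ± 0.50), Ins2 (-0.51 ± 0.62), Wdr25 (-0.08 ± 0.21) and Begain (0.01 ± 0.33), and on the other side of 0 Ddc (0.06 ± 0.25), Cobl (0.13 ± 0.29) and Ppp2r5c (0.33 ± 0.18).

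The genes most like each member were taken by Pearson correlation of log2(CPM + 1) over 34 sums by animal and class, among 10304 genes. These sums share animals, libraries and tumor RNA, so the values are descriptions. Among the genes most like Igf2 were Nucks1 (0.95) and Purb (0.92). Peg3 was most like Calca (0.88), which encodes the peptide CGRP, Hlf (0.87) and Acsl6 (0.87). Grb10 was most like the gene listed as PTPRG (0.88), Garre1 (0.86) and Fermt2 (0.86), and Meg3 most like Slit2 (0.79), Col5a3 (0.74) and Svep1 (0.73). The gene most like Rian was Meg3 (0.74), followed by Adgrd1 (0.74) and Lama2 (0.74). Cdkn1c was most like Cenph (0.85), Ubb (0.78) and Tcp1 (0.78), and Kcnq1ot1 most like Supt3 (0.94), Slc39a11 (0.92) and Pank2 (0.90). For Mirg no correlation was above 0.51, the value for Rpn2, followed by Ccdc61 (0.51) and Klhdc4 (0.50).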

How the data were processed

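Nuclei of the 4 tumors were barcoded and counted together with the Parse Evercode WT Mega kit. Libraries 2 to 8 each hold all 4 animals. The deposited values are whole-number transcript counts per gene and nucleus, which the authors made on GRCm39. Counts were used as deposited. The table of each animal gave its nuclei, and of 12 metadata columns 9 were not used.

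The study's filters were applied (at least 300 counts, at most 12000 genes and at most 10% mitochondrial counts). The rest were clustered (scikit-learn 1.9.0, leidenalg 0.10.2, resolution 0.4, without the imprinted genes and lists) and named from marker lists; the scoring rule was set after the clusters were seen. No doublet caller was run, and fits without nuclei over 4 times the median depth were an alternative. Counts were summed per animal and class and tested with edgeR 4.0.16 (TMM, filterByExpr, quasi-likelihood, two-sided, Benjamini-Hochberg over all genes, threshold 0.05); class fits used sums of at least 50 nuclei. DESeq2 1.42.0 was an alternative. The code was tested on simulated data. There the comparison of RPC with RP in tumor-like nuclei recovered 2.04% of genes set to 0.5-fold and 6% of those set to 2-fold. At 0.25-fold and 4-fold it recovered 47.8% and 60%, with 8 false calls. Intervals cover counting error only. Named list genes were the 3 with the lowest p of each list, and likeness used genes with a mean of at least 10 CPM, of which 1 named by the rule is not reported here. The 10 genes and all lists were chosen with earlier results of these data known. The alternatives without the neuronal-gene cluster, without Rn18s-rs5 and with little tumor RNA, and the interaction term, were chosen after seeing the data. RP1 and RPC1 share only a number: their deviations correlated at -0.04.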

Additional observations from a re-analysis of the deposited data

How the results depend on the processing

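Of 578 comparisons of a result with an alternative, over 45 results, 532 kept direction and side of the threshold, 14 lost a call, 4 gained one and 28 changed sign, none of the last called. The cause was not tested unless said. The log2 fold changes that changed sign in RPC against RP were those of Meg3 over all kept nuclei (-0.38) and without the neuronal-gene cluster (-0.76), Rian likewise (-0.39 and -0.64) and without deep nuclei (-0.073), Grb10 over all kept nuclei (-0.000141) and without the cluster (-0.92), Begain over all kept nuclei (-0.077), without deep nuclei (-0.11), with the replicate block (-0.037) and without the cluster (-0.0042), and Ikzf1 without deep nuclei (0.0078). Leaving out 1 animal, values ran from -0.66 to 1.69 for Meg3, -0.41 to 0.79 for Rian, -0.30 to 0.48 for Grb10, -0.072 to 0.67 for Cdkn1c, -0.044 to 0.51 for Trp53, -0.34 to 0.17 for Wdr25, -0.39 to 0.34 for Begain, -1.34 to 0.063 for Ins2, -0.30 to 0.10 for Usp29, -0.20 to 0.57 for Cobl and -0.22 to 0.42 for Ddc. DESeq2 called 4 list genes. The 11 class calls became 18 with no filter on low counts, 19 without deep nuclei, 19 with little tumor RNA and 7 to 13 leaving out 1 animal. The share of all genes called in these alternative fits is not given here. The counts therefore do not show whether the members changed more than other genes. Unthinned, which leaves depth in, the share of nuclei differed by 11.9 points for Igf2, 20.9 for Peg3 and 0.258 for Kcnq1ot1; at resolution 0.8, which makes 15 clusters, their highest cluster was 3.81, 3.50 and 2.36 times the lowest. The replicate block called 0 members and 0 list genes; the numbers do not pair the animals, and no other sign changed under it. With 2 animals a genotype, H19 and Dlk1 at 38 and 8 transcripts and tumor RNA in every lung class, many differences could not be resolved.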

Other observations

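Other imprinted genes also differed between classes of nuclei and the tumor-like nuclei. Of 33 further imprinted genes 19 were tested by class in the same edgeR fit. In macrophage or monocyte-like nuclei 1 was higher and 10 were lower, where 16.6% of all genes were called higher and 19.1% lower. In club-like nuclei 4 were higher and 3 lower, where 13% and 8.92% of all genes were. Plagl1, a zinc finger transcription factor of the father's copy, was higher there by log2 3.75 ± 0.57 (adjusted p = 1.84e-05 in edgeR), and Rasgrf1, an exchange factor for RAS, by log2 1.99 ± 0.38 (adjusted p = 2.76e-04). Plagl1 was also higher in alveolar type 2-like nuclei, by log2 2.11 ± 0.59 (adjusted p = 0.0223 in edgeR), where 8.2% of all genes were called higher. Neither club-like nor alveolar type 2-like nuclei had a sum from RP1 in this fit. In smooth muscle or pericyte-like nuclei, where 2.44% of all genes were called lower, Mest was lower by log2 -0.98 ± 0.32 and Snhg14 by log2 -0.97 ± 0.29.

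In the unnamed nuclei 4 of the 19 were higher and 8 lower, where 24.8% of all genes were called higher and 26% lower. Peg10 was higher by log2 2.19 ± 0.30 and Nnat by log2 1.08 ± 0.17, both protein-coding, while the noncoding Airn was lower by log2 -1.62 ± 0.18 and Sgce, a sarcoglycan, by log2 -1.51 ± 0.16. As for Igf2, Cdkn1c and Kcnq1ot1, the nuclei compared also differed in their shares of mitochondrial and ribosomal RNA. The part of this in the values was not tested.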
